A study of Mus musculus with 8 samples.

Results

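Cytochrome P450 families 1 to 3 were examined in mouse liver RNA-seq libraries. The members are every gene name made of Cyp, a family digit from 1 to 3, a subfamily letter and a number. They came to 53 of the 13774 genes in the table that holds the Ube3a transgenic libraries and 49 of the 11773 genes in the table of the Ube3a heterozygous libraries. All 49 stand in both tables, and Cyp1b1, Cyp2c53-ps, Cyp2s1 and Cyp2u1 stand in the transgenic table alone. GENCODE M21 annotates 83 genes of these families on GRCm38, of which 60 are protein-coding. Each table lists only genes above a low mean value, so the others were not analysed here.

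All 8 libraries came from livers of C57BL/6 mice fed a diet of 42% fat for 8 weeks. Ube3a encodes an E3 ubiquitin ligase, and the series asks how raised or lowered Ube3a changes the liver transcriptome on this diet. The TG livers were homozygous for a Ube3a transgene and the het livers carried 1 knockout and 1 wild-type Ube3a allele, while the WT livers carried neither change. Each genotype has 2 libraries and its own 2 WT libraries, in a table normalised apart from the other. The labels give neither age nor sex, neither the promoter that drives the transgene nor the parent of origin of the knockout allele, and no label states that a group's libraries are from separate mice. P-values therefore measure only the spread between these libraries, which may be technical.

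Ube3a itself was listed at 1187 and 1359 normalised reads in the WT libraries of the transgenic table and at 5991 and 5938 in the TG libraries, a log2 fold change of 2.23 ± 0.13 (SE, limma adjusted p = 0.0586, n = 2 per group). In the het table it stood at 369 and 409 in WT and at 301 and 280 in het, a log2 fold change of -0.42 ± 0.11 (limma adjusted p = 0.129). The groups did not overlap in either table, and by limma neither difference passed the threshold of adjusted p under 0.05 within its own table. The TG difference passed in 3 of 14 alternatives, namely DESeq2 (adjusted p = 5.02e-34), a single limma fit of all 8 libraries and limma without TG replicate 2, and the het difference in 0 of 14. The difference between the TG and het effects on Ube3a was 2.65 on the log2 scale and passed by limma and in all 17 alternatives run, with the highest adjusted p at 0.0177. Recovered reads per library were 44193275 to 47928229 in the transgenic table and 13171145 to 17748088 in the het table. Xist, the RNA of the inactive X chromosome, stood at 42810 to 52740 in the transgenic table and at 13359 to 14441 in the het table, and 4 Y-linked genes looked for were listed in neither. All 6 hepatocyte markers looked for (Alb, Ttr, Apoa1, Serpina1a, Serpina1c, Tat) were listed above 0 in every library.

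P450 enzymes of families 1 to 3 are haem proteins of the endoplasmic reticulum that add oxygen to drugs, pollutants, steroids, bile acids and fatty acids, with electrons passed on by P450 oxidoreductase. The liver holds most of the body's supply. Their transcription is set by ligand-activated factors such as AHR, CAR and PXR, by the liver factor HNF4A and, in rodents, by the sex-dependent rhythm of growth hormone. Many of the genes lie in clusters of recent duplicates, so that mouse has many more of them than human. Several are zoned in the liver lobule, as with Cyp2e1 and Cyp1a2 around the central vein and Cyp2f2 around the portal tract.

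In these livers the members together took 2.55% to 3.67% of each library's normalised reads in the transgenic table and 2.48% to 3.34% in the het table. Levels of different genes are given as mean normalised reads per kb of exon in the 2 WT libraries of a table. Cyp2e1, which oxidises ethanol and acetaminophen, ranked 1 in both tables, at 175790 per kb in the transgenic table and 77848 per kb in the het table. Its next neighbours in the transgenic table were Cyp2a4, a steroid hydroxylase, at 54530 per kb, Cyp3a41a at 50320 and Cyp2a5, a coumarin hydroxylase, at 48694. These 3 lie closer to each other than their own WT libraries do, which differed 1.41-fold for Cyp2a4 and 1.67-fold for Cyp3a41a. In the het table the members after Cyp2e1 were Cyp2a5 at 15733 per kb, Cyp2a4 at 12237, Cyp2d26 at 10805 and Cyp2c37 at 7464. Cyp2a5 and Cyp2a4 cannot be ordered there, since their gap is smaller than that between the WT libraries of Cyp2a5, listed at 26129 and 39099. At the other end of the transgenic table stood Cyp1b1 at 4.39 per kb, Cyp2u1 at 7.96 and Cyp2s1 at 8.32.

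Of 12 members listed as female-biased in mouse liver, 11 were measured, all but Cyp3a41b. They ranged from 297 normalised reads per kb for Cyp2b10 to 54530 for Cyp2a4 in the WT libraries of the transgenic table. Cyp2d9, a testosterone hydroxylase known as male-biased, stood there at 770 per kb, above Cyp2b10 and below the others of the list, of which Cyp2c38 was the lowest at 2993. Cyp1a1, an AHR target that is low in liver without an inducer, stood at 116 per kb, against 8530 for its neighbour Cyp1a2.

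Close paralogs can share reads, and how the authors' counting treated a read that fits several genes is not given in the sources used here. Each member's GENCODE M21 transcript was therefore cut into windows of 50 bases, and the windows that occur letter for letter in a transcript of another gene were counted. The median over 52 members was 10.9% of windows, with 29 members over 10% and 6 at 0. With windows of 100 bases the median was 1.48%. Cyp3a41a had 98.6% of its 50-base windows in another gene, 93.7% in Cyp3a41b, so its values cannot be told apart from those of Cyp3a41b. Cyp2c40 followed with 72.1%, Cyp2c69 with 54.8%, Cyp2c67 with 52.8% and Cyp2c68 with 43.3%, each with Cyp2c40 or Cyp2c69 as the leading partner. Cyp2c44 and Cyp2c70 had none.

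**Figure D1:**
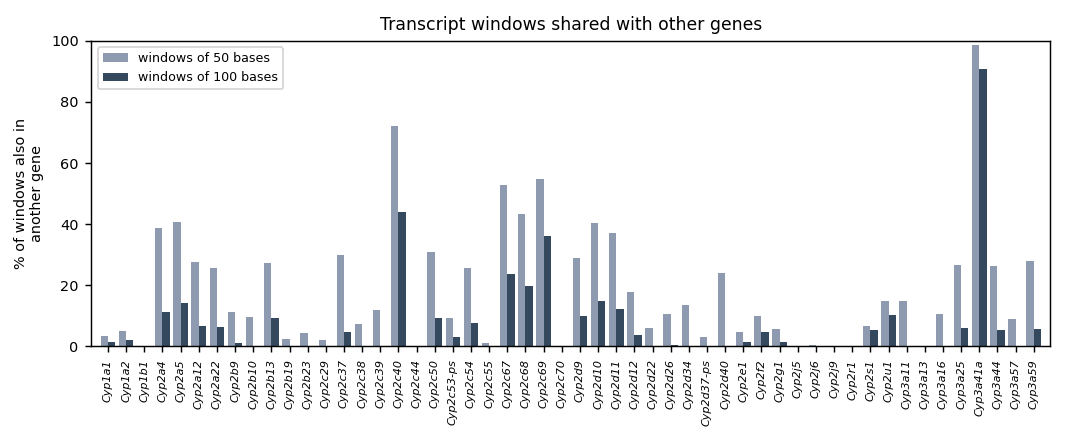
Percent of transcript windows of 50 bases (light bars) and 100 bases (dark bars) of each member that also occur in another gene; the y axis is percent of windows and Cyp2d13, which has no GENCODE M21 entry, is left out. Cyp3a41a stands at 98.6% and 90.8%, while Cyp2c44, Cyp2c70, Cyp2r1, Cyp2j9, Cyp3a13 and Cyp1b1 stand at 0.

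The spread between libraries of a group was wider for the members than for genes in general. In the transgenic table the median absolute log2 difference between the 2 WT libraries was 0.30 over the members and 0.18 over all genes, and between the 2 TG libraries 0.49 and 0.22. In the het table it was 0.25 over the members and 0.15 over all genes in WT, and 0.23 and 0.14 in het. Over 1 log2 unit apart were 14 of 53 members between the TG libraries and 2 of 49 between the het libraries, against 7.38% and 1.37% of all genes. Between the WT libraries it was 4 of 53 in the transgenic table and 1 of 49 in the het table, against 4.33% and 1.39% of all genes. Cyp2c39, an epoxygenase of fatty acids, was listed at 794 and 14035 in the WT libraries of the transgenic table and at 688 and 22839 in the TG libraries. That gap between libraries of a group, 17.7-fold in WT and 33.2-fold in TG, is wider than the difference between genotypes of any member. In the het table Cyp2c39 stood at 165 and 234 in WT and at 244 and 229 in het.

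**Figure D2:**
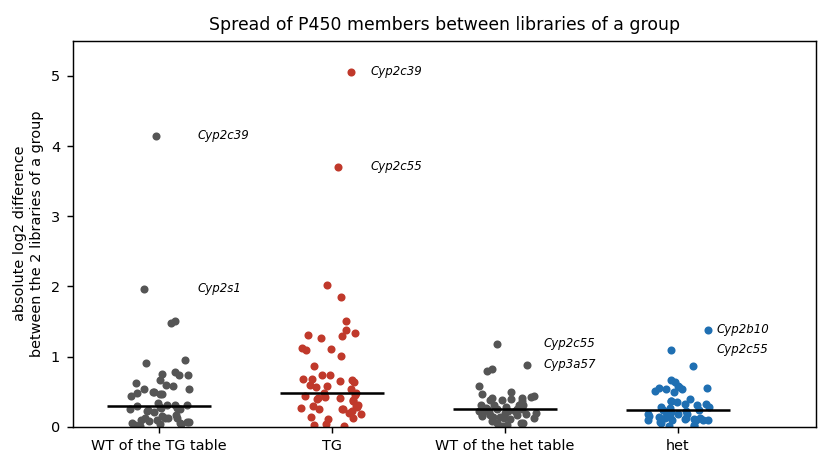
Absolute log2 difference between the 2 libraries of each group, on log2(value + 1), 1 point per member (53 in the transgenic table, 49 in the het table); the line is the median. The medians are 0.30, 0.49, 0.25 and 0.23 from left to right, and Cyp2c39 is the highest point in both groups of the transgenic table.

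Ube3a het livers had lower levels of 5 members than their WT pair: Cyp2c44, Cyp2c37, Cyp2c50, Cyp2d10 and Cyp2d11. The falls ran from 1.44-fold for Cyp2d11 to 2.39-fold for Cyp2c37, and no member rose by limma on all 4 libraries. Among all 11773 genes 0.544% were called lower and 0.892% higher, 1.44% in all (limma, Benjamini-Hochberg adjusted p under 0.05 over all genes). Cyp2c37, Cyp2c44 and Cyp2c50 are known in mouse as enzymes that oxidise arachidonic acid, and Cyp2d10 and Cyp2d11 are neighbours in the Cyp2d cluster.

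Cyp2c44 (ENSMUSG00000025197, GRCm38 chromosome 19, 44005022 to 44029208, minus strand) was listed at 4969 and 3997 normalised reads in the WT libraries and at 1975 and 1968 in the het libraries. Both het libraries were low and almost equal. The log2 fold change was -1.18 ± 0.12 (SE, limma adjusted p = 0.0047, n = 2 per group). Cyp2c44 makes epoxides from arachidonic acid and shares no window with other genes.

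Cyp2c37 (ENSMUSG00000042248, chromosome 19, 39992424 to 40012243, plus strand) was listed at 14698 and 12529 in WT and at 5055 and 6322 in het. The groups lay far apart relative to the gap within each. The log2 fold change was -1.26 ± 0.14 (limma adjusted p = 0.00777). Cyp2c50 (ENSMUSG00000054827, chromosome 19, 40089688 to 40113950, plus strand) was listed at 9916 and 11868 in WT and at 5615 and 6346 in het, a log2 fold change of -0.86 ± 0.13 (limma adjusted p = 0.0247). Cyp2c37 has 30.1% and Cyp2c50 30.7% of its 50-base windows in other genes, mostly in each other, so their values are partly uncertain.

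Cyp2d10 (ENSMUSG00000094806, chromosome 15, 82402846 to 82407195, minus strand) was listed at 11350 and 10272 in WT and at 6613 and 7197 in het. Its log2 fold change was -0.65 ± 0.12 (limma adjusted p = 0.0419). Cyp2d11 (ENSMUSG00000068085, chromosome 15, 82389154 to 82394022, minus strand) was listed at 2024 and 1871 in WT and at 1300 and 1406 in het, a log2 fold change of -0.53 ± 0.10 (limma adjusted p = 0.0442). Both lie near the threshold, and they share 40.5% and 37.2% of their 50-base windows with other genes, mostly each other. Cyp2c37 and Cyp2c44 were called whichever library was left out. Cyp2c50 lost its call without WT replicate 2, without het replicate 1 or without het replicate 2, and Cyp2d10 and Cyp2d11 lost theirs when any 1 of the 4 libraries was left out or with no robust variance estimates. In a single fit of all 8 libraries, which also draws on the spread of the transgenic table, 0 of the 49 members were called, with adjusted p of 0.227 for Cyp2c44 and 0.255 for Cyp2c37.

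**Figure D3:**
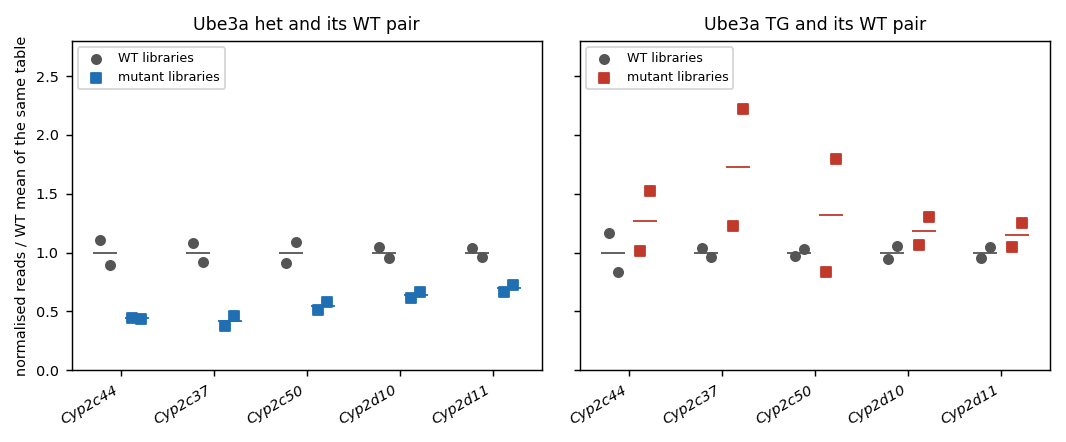
Normalised reads of the 5 members called in het, each divided by the WT mean of its own table (y axis, linear from 0), with 1 point per library and a line at each group mean. In the het table both het libraries of every gene stand below both WT libraries; in the transgenic table the TG libraries of Cyp2c37, Cyp2d10 and Cyp2d11 stand above WT and those of Cyp2c44 and Cyp2c50 overlap it.

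The promoters of 4 of the 5 called members, all but Cyp2c44, are shown because these genes were all lower in het and form 2 pairs of close paralogs. The sequences are the 250 bases before the RefSeq transcription start, on the gene's own strand, from GRCm38.p6. Capitals mark CAAAGT or its reverse complement, the core of the site that HNF4A binds. The windows are chr19:39992174-39992423 for Cyp2c37, chr19:40089429-40089678 for Cyp2c50, chr15:82407195-82407444 for Cyp2d10 and chr15:82394023-82394272 for Cyp2d11.
Cyp2c37: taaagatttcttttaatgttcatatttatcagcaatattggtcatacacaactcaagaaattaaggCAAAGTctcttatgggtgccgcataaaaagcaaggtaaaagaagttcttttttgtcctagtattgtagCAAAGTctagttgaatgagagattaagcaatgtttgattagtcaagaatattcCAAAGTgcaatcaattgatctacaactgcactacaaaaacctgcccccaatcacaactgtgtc
Cyp2c50: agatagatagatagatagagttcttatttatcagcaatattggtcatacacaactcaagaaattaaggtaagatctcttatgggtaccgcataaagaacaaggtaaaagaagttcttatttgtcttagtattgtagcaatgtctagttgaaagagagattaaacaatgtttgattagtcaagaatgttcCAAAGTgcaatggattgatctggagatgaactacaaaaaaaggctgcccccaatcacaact
Cyp2d10: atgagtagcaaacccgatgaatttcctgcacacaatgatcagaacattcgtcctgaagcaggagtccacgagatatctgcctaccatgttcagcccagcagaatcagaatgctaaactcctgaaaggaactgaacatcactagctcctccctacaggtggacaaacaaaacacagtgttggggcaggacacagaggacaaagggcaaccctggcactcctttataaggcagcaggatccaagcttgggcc
Cyp2d11: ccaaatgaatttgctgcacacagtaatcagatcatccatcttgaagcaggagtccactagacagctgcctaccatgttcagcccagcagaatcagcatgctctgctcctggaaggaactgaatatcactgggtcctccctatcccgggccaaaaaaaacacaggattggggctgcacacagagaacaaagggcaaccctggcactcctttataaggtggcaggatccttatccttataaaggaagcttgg
The Cyp2c37 and Cyp2c50 promoters were identical at 84.3% of aligned positions, and those of Cyp2d10 and Cyp2d11 at 76.7%. The core stood 3 times in the Cyp2c37 promoter, starting 184, 116 and 63 bases before the start, and once in the Cyp2c50 promoter, 61 bases before it. The Cyp2d10 and Cyp2d11 windows had no copy.

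Of the members, 43 have a promoter in the RefSeq table, and CAAAGT was found on either strand in 23 of them (53.5%), against 12.5% of 27025 promoters of the same length. The longer CAAAGTCCA, which contains the core, stood in 8 member promoters against 0.381% of all promoters. Those 8 belong to Cyp2c40, Cyp2c67, Cyp2c68, Cyp2c69, Cyp2c70, Cyp3a11, Cyp3a16 and Cyp3a41a. By limma none of the 8 was called in het, while DESeq2 called Cyp2c68 and Cyp2c70 lower and Cyp3a41a higher. AGGTCA, the half-site of nuclear receptors, stood in 14 member promoters against 13.8% of all. GCGTG, the core bound by AHR, stood in 5, among them Cyp1a1 and Cyp1b1, against 28.2% of all. TATAAA stood in 22 against 13.0%. Some promoters of paralogs are near copies, with an identity of 99.2% for Cyp2b9 and Cyp2b13 and 91.3% for Cyp2c68 and Cyp2c69. These counts are therefore not of independent sequences. The median over 55 pairs of Cyp2c promoters was 53.5%, with no unrelated promoters aligned for comparison.

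Over all 49 members, the called ones included, 36 had a mean log2 level below WT in het, with a median log2 fold change of -0.27, against -0.0007 over all genes. Both het libraries stood below both WT libraries in 22 members and above them in 3. Among all genes these shares were 23.7% and 24.3%. An unadjusted p under 0.05 was reached by 16 members, 15 of them lower, against 14.7% of all genes in either direction and 6.11% lower. DESeq2 on the recovered reads called 13 members, against 2.45% of all genes: the 5 above, Cyp1a2, Cyp2a5, Cyp2c29, Cyp2c54, Cyp2c68, Cyp2c70 and Cyp2d13 lower, and Cyp3a41a higher.

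**Figure D4:**
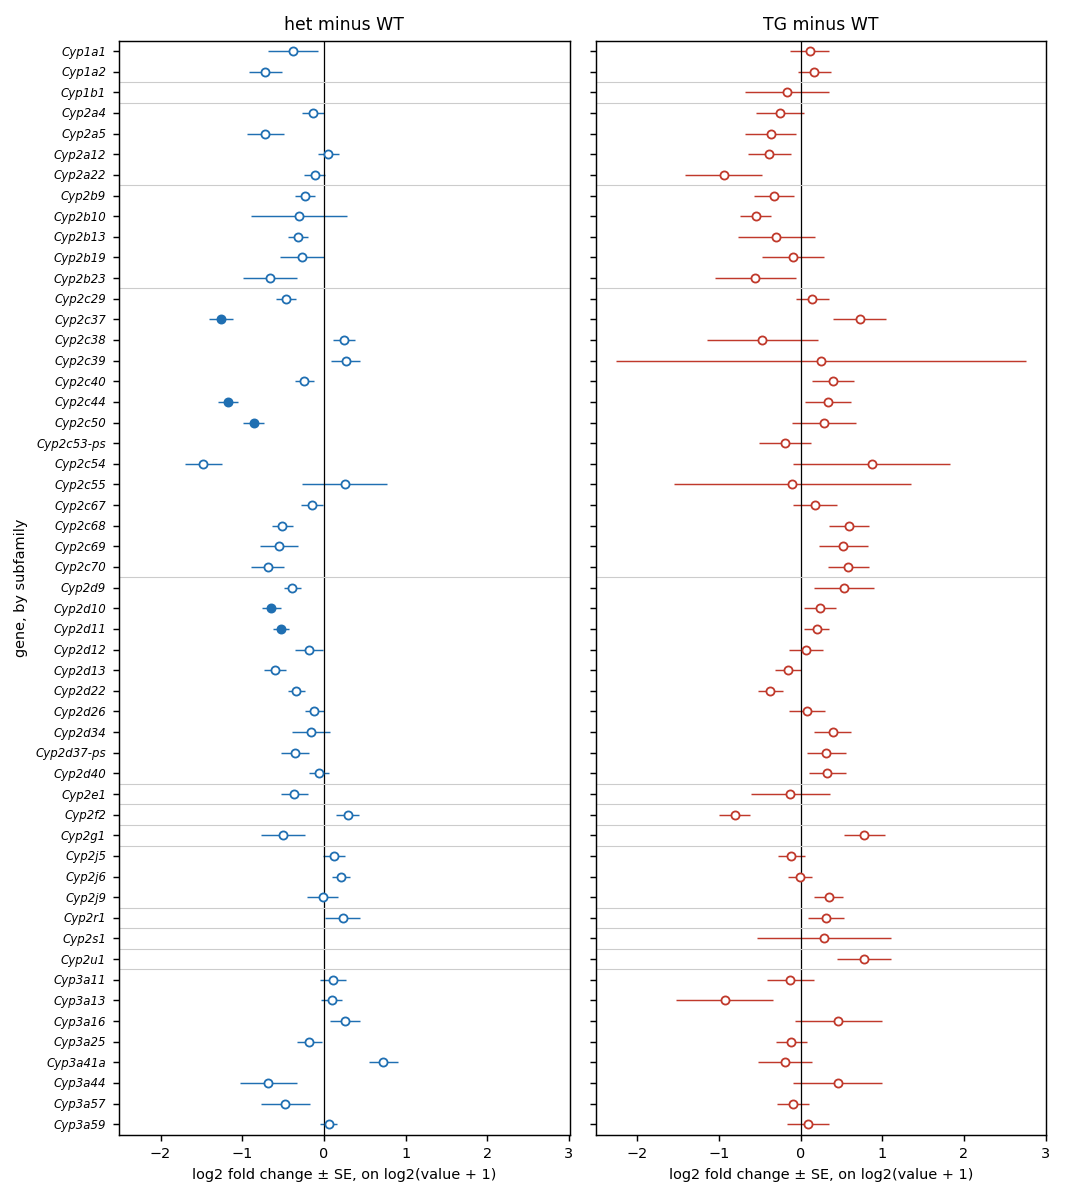
Log2 fold change ± SE of each member on the log2(value + 1) scale, het minus WT on the left and TG minus WT on the right, with the same x axis; filled points passed the adjusted p threshold. The 5 filled points are Cyp2c37, Cyp2c44, Cyp2c50, Cyp2d10 and Cyp2d11 in het, and Cyp2c39 has the widest error in TG.

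The Cyp2c members other than Cyp2c44 lie on chromosome 19 between 39007019 and 40187333. In het, the neighbours at the distal end of that run had the lowest log2 fold changes of the run: Cyp2c37, Cyp2c54, Cyp2c50 and Cyp2c70, in this order along the chromosome. Cyp2c54 was listed at 3909 and 3879 in WT and at 1109 and 1769 in het, a log2 fold change of -1.47 ± 0.23 (limma adjusted p = 0.0753). It has the lowest log2 fold change of all members, and its het libraries differed 1.59-fold. It was called by DESeq2, with no robust variance estimates and without either het library. Cyp2c70, which hydroxylates bile acids into the muricholic acids of mice, was listed at 9614 and 11928 in WT and at 8038 and 5479 in het, with a log2 fold change of -0.69 ± 0.21 (limma adjusted p = 0.217).

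Cyp2c29, the most abundant member of the subfamily by reads and an epoxygenase inducible through CAR, was listed at 15875 and 17562 in WT and at 11678 and 12505 in het. Its log2 fold change was -0.47 ± 0.12 (limma adjusted p = 0.116), and its annotation overlaps that of Cyp2c53-ps on the same strand. Cyp2c68 stood at 9361 and 7841 in WT and at 5645 and 6407 in het, with a log2 fold change of -0.51 ± 0.13 (adjusted p = 0.114). Further along the run, Cyp2c40, Cyp2c67 and Cyp2c69 had log2 fold changes of -0.24, -0.14 and -0.55, and share most of their 50-base windows with other genes. Cyp2c38, Cyp2c39 and Cyp2c55 had mean levels above WT, with log2 fold changes of 0.24, 0.27 and 0.25, and their libraries overlapped WT. Of the 13 Cyp2c members measured in het, 10 were below WT on the mean, 9 of them without overlap. Among all genes these shares were 50.1% and 23.7%.

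All 10 Cyp2d members had mean levels below WT in het, 6 of them without overlap, and the subfamily's median log2 fold change was -0.35. Among all genes 50.1% were lower and 23.7% lower without overlap. Cyp2d10, Cyp2d11 and Cyp2d9 have 40.5%, 37.2% and 29.0% of their 50-base windows in other genes, so these are not fully separate measurements. Cyp2d13, which RefSeq holds as a transcribed pseudogene, was listed at 4823 and 3756 in WT and at 2870 and 2744 in het, a log2 fold change of -0.60 ± 0.13 (limma adjusted p = 0.0768). Cyp2d22 was at 5334 and 5161 in WT and at 4277 and 4009 in het (-0.34 ± 0.10, adjusted p = 0.178). Cyp2d26, which gave 43.8% of the subfamily's reads in the het table, was at 19740 and 18984 in WT and at 17215 and 18451 in het, a difference of -0.12 ± 0.12 on the log2 scale. The lower level was thus uneven across the cluster, from -0.06 for Cyp2d40 to -0.65 for Cyp2d10.

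In the Cyp1 family, Cyp1a2, which metabolises caffeine and aromatic amines, was listed at 4722 and 5657 in WT and at 2590 and 3813 in het. Its log2 fold change was -0.72 ± 0.20 (limma adjusted p = 0.197), without overlap. It was called lower by DESeq2, and by limma without het replicate 2. Cyp1a1 was near the low end of the table at 66.3 and 77.9 in WT and 40.5 and 74.8 in het. Among the Cyp2a members, Cyp2a5 was at 26129 and 39099 in WT and at 17062 and 22085 in het (-0.72 ± 0.23, adjusted p = 0.232), whereas Cyp2a4, Cyp2a12 and Cyp2a22 overlapped WT. Cyp2a4 and Cyp2a5 share 38.8% and 40.8% of their windows with other genes.

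All 5 Cyp2b members had mean levels below WT in het, 3 of them without overlap, against 50.1% and 23.7% of all genes. Cyp2b9 was at 11035 and 10645 in WT and at 8579 and 9939 in het (-0.23 ± 0.12, adjusted p = 0.422). Cyp2b10, the classical target of CAR, was at 272 and 209 in WT and at 312 and 120 in het, so that the het libraries lay on either side of WT. Cyp2e1 was listed at 180769 and 155221 in WT and at 116463 and 145716 in het, a log2 fold change of -0.36 ± 0.17 (limma adjusted p = 0.358).

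The Cyp3a members did not share a direction in het. Cyp3a41a, whose values may hold reads of Cyp3a41b, was listed at 14540 and 14433 in WT and at 19949 and 28872 in het. Both het libraries were above WT, with a log2 fold change of 0.73 ± 0.18 that did not pass by limma (adjusted p = 0.114) but did by DESeq2, and by limma without het replicate 1. Cyp3a11, the main drug-metabolising member of the subfamily, was at 38962 and 29194 in WT and at 34699 and 38184 in het, overlapping. Cyp3a44 stood below WT without overlap, at 2014 and 3560 in WT and at 1472 and 1894 in het (-0.68 ± 0.35).

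Of the small subfamilies, Cyp2f2, which bioactivates naphthalene and marks periportal hepatocytes, was at 9184 and 10050 in WT and at 13052 and 10556 in het (0.29 ± 0.14, limma adjusted p = 0.370). Cyp2j6 was the third member above WT without overlap, at 1027 and 1248 in WT and at 1300 and 1318 in het. Cyp2j5, an epoxygenase, was at 9140 and 10176 in WT and at 11534 and 9600 in het. Cyp2r1, a vitamin D hydroxylase, was at 155 and 147 in WT and at 221 and 141 in het, and Cyp2g1, best known from olfactory tissue, was at 152 and 87.1 in WT and at 87.9 and 74.8 in het. Each of the last 3 overlapped WT.

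Summed over its listed members, Cyp2c reached 98092 and 94847 normalised reads in WT and 59959 and 65168 in het, a level 1.54-fold lower. The gap between the groups was much wider than that within either. The Cyp2d sum was 49066 and 45228 in WT and 36747 and 38695 in het, 1.25-fold lower. The sums of Cyp1a, Cyp2a and Cyp2b were also lower in both het libraries, the former 2 by 1.61-fold and 1.26-fold. Cyp1a2 made up 98.5% of the Cyp1a sum. Most of the Cyp2a fall lay in Cyp2a5, whose mean went from 32614 in WT to 19574 in het, against 70823 to 56142 for the sum. The Cyp3a sum was 69804 and 64815 in WT and 71559 and 84517 in het, higher 1.16-fold, and that of Cyp2j overlapped WT. Most of the Cyp3a rise lay in Cyp3a41a, whose values cannot be told apart from those of Cyp3a41b. Its mean went from 14487 in WT to 24410 in het, against 67310 to 78038 for the sum. Over all 49 members the sum was 505769 and 484955 in WT and 379771 and 438453 in het, 1.21-fold lower. These sums are descriptions without a test. How a read that fits several genes was counted is not given. A sum is free of the uncertainty of reads shared within a subfamily only if each such read was counted once.

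**Figure D5:**
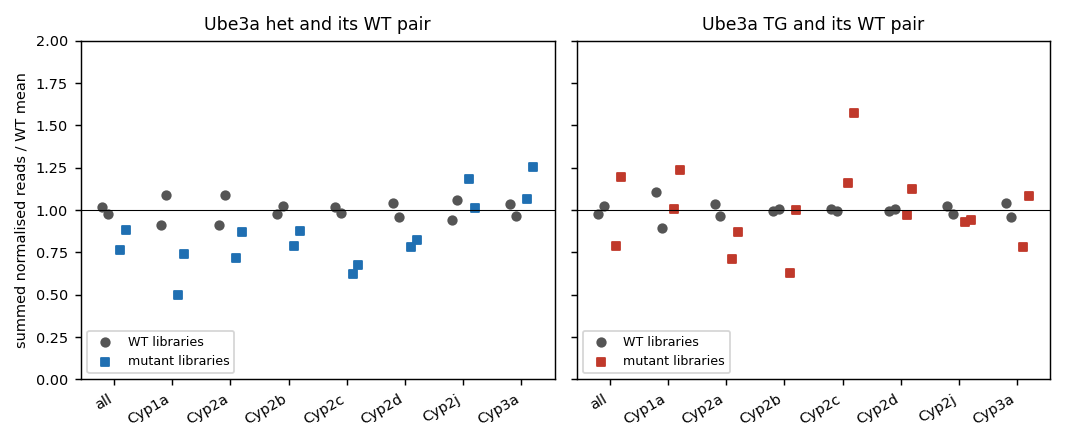
Normalised reads summed over all members and over each subfamily of 2 or more members, divided by the WT mean of the same table (y axis, linear from 0), with 1 point per library. In the het table both het libraries stand below WT for all members together and for Cyp1a, Cyp2a, Cyp2b, Cyp2c and Cyp2d and above WT for Cyp3a; in the transgenic table the Cyp2c sum stands above WT and those of Cyp2a and Cyp2j below.

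In TG livers 0 of 53 members passed the threshold by limma, as did 0.0% of all 13774 genes. An unadjusted p under 0.05 was reached by 3 members, 2 of them lower, against 9.12% of all genes in either direction and 3.96% lower. The edgeR test called 0 members, and DESeq2 called Cyp2f2 alone among 1.35% of all genes. The members' median log2 fold change was 0.09, against 0.0014 over all genes. On the mean log2 level 29 members were above and 24 below WT. Both TG libraries stood above both WT libraries in 9 members and below in 7, against 21.8% and 21.6% of all genes.

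Cyp2f2 was listed at 41157 and 49645 in the WT libraries of the transgenic table and at 25748 and 25860 in the TG libraries, a log2 fold change of -0.81 ± 0.19 (limma adjusted p = 0.479). Both TG libraries were low and nearly equal. Cyp2g1 was at 494 and 463 in WT and at 647 and 1043 in TG (0.78 ± 0.25, adjusted p = 0.526). Cyp2b10 was at 673 and 581 in WT and at 369 and 493 in TG (-0.55 ± 0.19, adjusted p = 0.535). These are the 3 members under an unadjusted p of 0.05.

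Of the 14 Cyp2c members, 11 had mean log2 levels above WT in TG, while 49.8% of all genes were below. Cyp2c37 was at 31847 and 29334 in WT and at 37363 and 68030 in TG, a log2 fold change of 0.72 ± 0.32 (limma adjusted p = 0.571). Cyp2c68 was at 20038 and 13833 in WT and at 27310 and 23027 in TG (0.59 ± 0.24, adjusted p = 0.555). Cyp2c70 was at 24532 and 36807 in WT and at 46913 and 43185 in TG (0.58 ± 0.25, adjusted p = 0.563). Those 3 did not overlap WT. Cyp2c44 and Cyp2c50 overlapped it, at 12135 and 8617 in WT against 10488 and 15822 in TG for the former and at 28297 and 30219 against 24331 and 52635 for the latter. The Cyp2c sum was 250870 and 248059 in WT and 288826 and 392281 in TG, 1.36-fold higher, with a log2 ratio of 0.45 that dropped to 0.21 without TG replicate 2.

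In the Cyp2d subfamily Cyp2d10 was at 25300 and 28201 in WT and at 28426 and 34751 in TG, and Cyp2d11 at 5141 and 5608 in WT and at 5634 and 6709 in TG. Both stood just above WT, with log2 fold changes of 0.23 ± 0.19 and 0.20 ± 0.15. Cyp2d22 was at 18076 and 18651 in WT and at 14023 and 14337 in TG, below WT in both libraries as it was in het (-0.37 ± 0.15, limma adjusted p = 0.555). All 4 Cyp2a members and all 5 Cyp2b members had mean levels below WT in TG, against 49.8% of all genes. The Cyp2a sum was 279006 and 258741 in WT and 191366 and 233971 in TG, 1.26-fold lower. The sums of Cyp1a, Cyp2b, Cyp2d and Cyp3a overlapped WT.

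Cyp2e1 illustrates the spread in this table, at 321936 and 436762 in WT and at 220956 and 531457 in TG. The TG libraries lay on either side of WT, as they did for Cyp2c38 (3248 and 11759 in TG, 7924 and 9249.5 in WT). Cyp3a16 was at 22949 and 13312 in WT and at 15428 and 37638 in TG, overlapping. Without TG replicate 2, Cyp2a22 and Cyp2c38 were called lower, and the log2 ratio of the sum over all members moved from -0.01 to -0.34. Cyp2a22 was at 25292 and 21427 in WT and at 7646 and 19246 in TG. Of the low members, Cyp2u1 was at 41.0 and 42.4 in WT and at 90.6 and 57.1 in TG (0.77 ± 0.33, limma adjusted p = 0.560), Cyp2s1 at 66.0 and 16.2 against 25.3 and 64.1, and Cyp1b1 at 30 and 21.2 against 33.1 and 15.02.

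The difference between the 2 effects, (TG minus WT) minus (het minus WT), was tested in a joint fit of all 8 libraries over 11754 genes. By limma 0 of 49 members passed, against 0.434% of all genes. An unadjusted p under 0.05 was reached by 12 members, 1 of them negative, against 16.7% of all genes in either direction and 8.28% negative. The edgeR test called 0 members and DESeq2 called 7 (3.16% of all genes), namely Cyp2c37, Cyp2c44, Cyp2c68, Cyp2c70, Cyp2d10, Cyp2d11 and Cyp2f2. The smallest p was that of Cyp2c37, with a log2 difference of 1.99 ± 0.39 and a limma adjusted p of 0.0826. Cyp2f2 followed at -1.10 ± 0.23 (adjusted p = 0.0983) and Cyp2c44 at 1.51 ± 0.33 (adjusted p = 0.113). In 5 members both TG libraries stood above and both het libraries below WT, against 7.23% of all genes. Cyp2f2 was the reverse. Together the 6 are a smaller share of the 49 members than the 15.1% found over all genes. Without TG replicate 1, the call was made for Cyp2c37, Cyp2c44, Cyp2c50 and Cyp2d10. Without TG replicate 2 it was made for Cyp2c37, Cyp2f2, Cyp2a22, Cyp2c38 and Cyp3a13.

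Of the 10 members known as epoxygenases of fatty acids, 3 fell in het by limma (Cyp2c37, Cyp2c44 and Cyp2c50), against 0.544% of all genes, and the median log2 fold change was -0.24, against 0.27 in TG, where 0 passed by limma. Of the 12 members known to be induced through CAR or PXR, 2 fell in het by limma (Cyp2c37 and Cyp2c50), against the same 0.544% of all genes, with a median of -0.24 in het and -0.11 in TG. The 11 female-biased members had 0 calls by limma in either table, with medians of -0.23 in het and -0.19 in TG. These lists are drawn from the members, of which 5 of 49 were called lower in het, so their counts repeat those calls. The lists overlap each other, and Cyp2c37 and Cyp2c50 share part of their windows. Whether a list differed from the other members was not tested.

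Among genes that regulate or serve these enzymes, taken from lists of general knowledge, 24 of 25 P450 regulators were measured in het. Ahr, which encodes the aryl hydrocarbon receptor, fell from 521 and 577 in WT to 361 and 369 in het (log2 fold change -0.58 ± 0.10, limma adjusted p = 0.0403), a call lost when any 1 of the 4 libraries was left out, in the single fit of all 8 libraries and with no robust variance estimates. It was the only regulator called by limma, against 0.544% of all genes called lower. Its targets Cyp1a1, Cyp1a2, Tiparp and Nqo1 did not pass by limma, although Cyp1a2 was called lower by DESeq2, and Tiparp was listed higher, at 99.5 and 99.4 in WT and 185 and 138 in het. Nr1i2, which encodes PXR, was at 1957 and 1791 in WT and at 2365 and 2363 in het (0.34 ± 0.10, adjusted p = 0.159). Nr1i3, which encodes CAR, was at 3284 and 3419 in WT and at 2701 and 3222 in het, and Hnf4a at 7669 and 6643 in WT and at 8350 and 7733 in het.

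Of 17 genes of electron transfer and haem supply, 0 passed by limma in het, 9 with higher and 8 with lower means. The smallest p were those of Cyb5r3 and Hmox1, both above WT without overlap. Cyb5r3 was at 6657 and 6455 in WT and at 10086 and 8476 in het (0.50 ± 0.12, limma adjusted p = 0.106). Hmox1 was at 314 and 450 in WT and at 550 and 635 in het (0.65 ± 0.18, limma adjusted p = 0.186). Por, which encodes P450 oxidoreductase, was at 13078 and 14705 in WT and at 12728 and 13637 in het. Of 31 genes of conjugation and epoxide hydrolysis, which act on the products of P450 enzymes, 2 rose in het by limma and none fell, against 0.892% of all genes higher and 0.544% lower. Ugt1a5 rose from 960 and 845 to 2588 and 1905 (log2 fold change 1.30 ± 0.16, limma adjusted p = 0.0178). Ugt1a9 rose from 293 and 257 to 507 and 626 (1.03 ± 0.13, adjusted p = 0.0119). Both are isoforms of the Ugt1a locus, which share exons, so that reads can be split between them. In the single fit of all 8 libraries neither was called, and Ugt1a5 lost its call without WT replicate 1 or WT replicate 2.

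In TG 0 genes of these lists passed by limma. DESeq2 called each of the 4 genes named next, with adjusted p of 0.00757 for Cux2, 0.0178 for Onecut1, 0.018 for Alad and 0.044 for Ephx1, against 1.35% of all genes. Of the regulators 17 were above and 7 below WT on the mean, among them Cux2, a female-biased factor, at 1644 and 739 in WT and at 2972 and 4196 in TG (1.68 ± 0.45, limma adjusted p = 0.518). Onecut1 was at 491 and 457 in WT and at 760 and 842 in TG (0.76 ± 0.14, limma adjusted p = 0.348). Of the electron transfer and haem genes 12 of 17 were below WT on the mean log2 level. Alad, an enzyme of haem synthesis, was at 14352 and 15344 in WT and at 6868 and 9605 in TG (-0.87 ± 0.21, limma adjusted p = 0.485). Of the conjugation genes 23 of 31 were below WT on the mean log2 level. Ephx1, a microsomal epoxide hydrolase, was at 26507 and 21089 in WT and at 8354 and 14496 in TG (-1.10 ± 0.31, limma adjusted p = 0.518).

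Markers of other liver cells moved beside these values. In het, 7 of 7 endothelial markers were above WT on the mean and Lyve1 and Gpr182 passed, with log2 fold changes of 0.92 and 0.67 (limma adjusted p = 0.0403 and 0.0442), against 0.892% of all genes called higher. Their summed level was 2803 and 3106 in WT and 3489 and 3573 in het. In TG, 0 of 7 were above WT, with sums of 11816 and 11508 in WT and 9629 and 9355 in TG. Kupffer cell and macrophage markers were above WT in 5 of 6 cases in het and in 0 of 6 in TG. Stellate cell markers ran the other way, above WT in 1 of 6 cases in het and in 6 of 6 in TG. Cholangiocyte markers were above WT in 1 of 1 measured in het and in 1 of 5 in TG. T and B lymphocyte markers were above WT in 0 of 2 measured in het and in 0 of 5 in TG. Hepatocyte markers were above WT in 2 of 6 cases in het and in 6 of 6 in TG. Their summed level overlapped WT in both tables, at 1562110 and 1341730 in WT against 1256340 and 1397920 in het, and at 4246170 and 3393560 in WT against 4568280 and 4092310 in TG. Alb gave most of both sums, so they say little of the other markers. Apoa1 stood furthest from WT in TG, with a log2 fold change of 1.49 ± 0.24 (limma adjusted p = 0.296). In het, Serpina1a and Serpina1c were below WT without overlap, at -0.53 and -0.44 (limma adjusted p = 0.103 and 0.165). Pericentral markers, Cyp2e1 and Cyp1a2 among them, were above WT in 3 of 10 cases in het and in 6 of 10 in TG. Periportal markers, Cyp2f2 among them, were above WT in 6 of 9 cases in het and in 3 of 9 in TG. No marker measured was listed at 0. The part of these markers in the P450 values was not tested, and in bulk tissue fewer cells of a type and less RNA per cell cannot be told apart.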

How the data were processed

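RNA from whole liver, taken up in TRIzol, was made into TruSeq libraries, per the labels' protocols. Per the submitters' processing notes, the tools and builds were Subread 1.5.2, featureCounts, DESeq2 and mm10/GRCm38, without roles; the sources used here give neither annotation nor strand use. The deposited signal values are gene counts that had been divided by a scale per library, judged from the values: every entry in all 8 libraries was a whole multiple of the worth of 1 read within 0.001. The lowest mean of a listed gene was 11.2 in the transgenic table and 17.8 in the het table. Depth speaks to counting error only.

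Within each table, log2(value + 1) was tested with limma 3.58.1 (R 4.3.3; lmFit, then eBayes with trend and robust estimates), with Benjamini-Hochberg adjustment over all genes and a threshold of adjusted p under 0.05. Folds are ratios of mean values, and log2 fold changes understate low genes. Alternatives were edgeR 4.0.16 and DESeq2 1.42.0 on the recovered reads, pseudocounts of 0.5 and 5, TMM scaling, a mean of at least 50, no robust estimates, 1 fit of all libraries, a replicate block, and dropping each library in turn. Library sums without the 20 most abundant genes, and the sum without Cyp2e1, were chosen after seeing the data. The limma test was also tried on simulated counts, drawn for each gene apart. That trial did not cover reads shared between paralogs, and no result here rests on it. Gene positions are from GENCODE M21 by symbol (52 of 53 members, Cyp2c44 through its RefSeq synonym), and promoters were aligned with Biopython 1.88.

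The members and gene lists were chosen with earlier results of these data known. Named genes were the called members, the 5 of smallest p per comparison, the most abundant of each subfamily, those apart in opposite directions in the 2 tables, the called or else the 2 leading genes of each list, and Ube3a. Some genes so chosen are not described above. Uros and Sult1d1 in TG and Dbp in the difference of effects are among them, and none of these passed by limma. Other genes with values, Cyp2c38, Cyp2c39, Cyp2c54, Cyp2d13, Cyp2a22, Cyp3a44, Nr1i2, Nr1i3, Hnf4a and Por among them, were chosen after their values were seen.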

Additional observations from a re-analysis of the deposited data

Results flagged for a closer look

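In 6 of 49 members both libraries of each genotype lay apart from their WT pair, in opposite directions for the 2 genotypes. That share is below the 15.1% of 11754 genes, so such placement was no commoner among members than among genes in general. In 5 of the 6 members TG stood above and het below WT, against 7.23% of all genes. The difference of the effects, TG minus het on the log2 scale, was 1.99 for Cyp2c37 (limma adjusted p = 0.0826), 1.10 for Cyp2c68 (0.150), 1.27 for Cyp2c70 (0.167), 0.88 for Cyp2d10 (0.133) and 0.72 for Cyp2d11 (0.132). Cyp2f2 ran the other way, with TG below and het above WT and a difference of -1.10 (adjusted p = 0.0983). None of the 6 differences passed by limma over all genes. The Cyp2d10 and Cyp2d11 values share part of their transcript windows, as given above, and the marker sums of endothelial cells also ran in opposite directions in the 2 tables. Their part in these differences was not tested.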

How the results depend on the processing

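DESeq2 called 186 genes and 1 member in TG (0 and 0 by limma), 289 genes and 13 members in het (169 and 5) and 371 genes and 7 members for the difference (51 and 0). A single fit of all 8 libraries called 25 genes in TG and 0 in het, with 0 members in het, and no robust estimates gave 93 genes in het, without the calls of Cyp2d10 and Cyp2d11 and with that of Cyp2c54; the cause was not tested. With 1 library left out, a lone library being assumed to vary like the others, the counts ran from 0 to 146 genes and 0 to 2 members in TG, from 61 to 173 genes and 3 to 4 members in het, and from 5 to 643 genes and 0 to 5 members for the difference. The log2 ratio of the sum over all members ran from -0.34 to 0.25 in TG. All 15 changes of direction among the named log2 values came from leaving out a library. In TG they ran from -0.71 to 0.38 for Cyp1b1, -0.73 to 0.0052 for Cyp2a5, -0.27 to 0.85 for Cyp2c50, -0.11 to 0.27 for Cyp2d26, -0.76 to 0.50 for Cyp2e1, -0.69 to 1.27 for Cyp2s1 and -0.36 to 0.11 for Cyp3a11. In het they ran from -0.99 to 0.39 for Cyp2b10, -0.0067 to 0.26 for Cyp2j5, -0.091 to 0.55 for Cyp2r1 and -0.10 to 0.32 for Cyp3a11. Pseudocounts, TMM scaling, the filter on low means and the library sum without the 20 most abundant genes called the same 5 members in het, as did edgeR.

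Replicate numbers were not shown to pair libraries: the correlation of deviations between same-numbered libraries was 0.107 in the transgenic table and -0.043 in the het table. With the replicate block, 138 genes and 5 members were called in het (Cyp2c37, Cyp2c44, Cyp2c50, Cyp1a2 and Cyp2c54, not Cyp2d10 or Cyp2d11), 0 and 0 in TG, and 46 and 0 for the difference. With 2 libraries a group, a p above the threshold does not show that levels were alike.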
